A study of Mus musculus with 2 samples.

Results

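Of 8909 mouse mammary cell barcodes with 500 or more detected genes and no more than 10% mitochondrial transcripts, 1783 carried the marker genes of both luminal epithelial programs at once. They were chosen by 3 expression gates and a cilia limit, all read from the same counts described here. Per 10000 transcripts, a barcode had to hold at least 50 of Krt18, a luminal keratin, at least 3 of Prlr, the prolactin receptor of hormone-sensing cells, and at least 10 of Wfdc18, Csn3 and Aldh1a3 together, genes of the luminal progenitor side. Barcodes with 3 or more transcripts over 7 cilia genes were set aside. The comparison groups passed the Krt18 gate with only one of the others, and are called Prlr-only and progenitor-only barcodes below. A barcode is the label of 1 droplet, and a droplet can hold RNA of more than 1 cell.

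The study made 2 single-cell RNA libraries by 10x Chromium 3′ capture from mammary glands of C57BL/6 mice. The control library (Ctrl) came from miR-200c/141-flox/flox mice, in which loxP sites flank both copies of a microRNA locus. The knockout library (cKO) came from K8-CreERT2;miR-200c/141-flox/flox mice, which add a tamoxifen-activated Cre recombinase under the promoter of keratin 8, a luminal gene. Both groups carried the floxed alleles and both are labelled as taken 4 weeks after tamoxifen. Tamoxifen was given at 8 to 10 weeks of age, while the age label reads 8 weeks. Tamoxifen binds the estrogen receptor, so it belongs to the setting of both libraries. Mammary cells were enriched by sorting, and the labels do not say how many mice entered a library. With 1 library per group no test between groups exists, and differences between the libraries cannot be told apart from differences between mice, dissociations or sorts. Every interval is a 95% interval for counting error only.

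The inner layer of the mammary duct holds a pair of luminal cell kinds. Hormone-sensing cells carry the receptors for estrogen (Esr1), progesterone (Pgr) and prolactin (Prlr) and send signals such as amphiregulin (Areg), Wnt4 and RANKL (Tnfsf11) to their neighbours. Luminal progenitors, the milk lineage, depend on the transcription factor Elf5, carry the receptor Kit and make secreted proteins such as lactoferrin (Ltf), lipocalin 2 (Lcn2) and caseins. In the adult gland the programs are usually described in separate cells, which is why barcodes with both are set beside barcodes with 1.

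The microRNAs deleted in the knockout are miR-200c and miR-141, and their mature forms are shown because the deletion defines the groups, together with the relatives that share their seeds and lie at another locus. Sequences are from RefSeq for GRCm38.p6, 5′ to 3′, and the capitals mark the seed, bases 2 to 8. Both deleted forms lie on the minus strand of chromosome 6, miR-200c-3p from 124718324 to 124718346 and miR-141-3p from 124717917 to 124717938. The others lie on chromosome 4.
miR-200c-3p: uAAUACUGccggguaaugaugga
miR-200b-3p: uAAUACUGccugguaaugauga
miR-429-3p: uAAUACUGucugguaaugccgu
miR-141-3p: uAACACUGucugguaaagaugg
miR-200a-3p: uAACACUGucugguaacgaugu
The 5 forms fall into 2 seed groups of 3 and 2 members, and each seed of the deleted locus is also carried by a microRNA of the other locus. The 3′ libraries do not count mature microRNAs, so the deletion was not checked here.

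The 1783 barcodes were 728 of 3416 in Ctrl and 1055 of 5493 in cKO. The Prlr-only class held 648 and 1176 barcodes, the progenitor-only class 716 and 1184, and 52 and 140 passed neither gate. The libraries held 93910664 and 102558469 unique molecular identifiers (UMIs, counts of single captured transcripts) in the kept barcodes, with medians of 19846 and 14002 per barcode. The libraries shared 6 deposited barcode sequences, of which 5 were kept in both. Of the 6, 2 were both-program barcodes in at least one library.

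The gate values that chose the barcodes are given as a description. In Ctrl, both-program barcodes held a median of 7.53 Prlr UMIs per 10000 against 10.4 in Prlr-only barcodes and 0 in progenitor-only barcodes. In cKO the medians were 8.21, 12.2 and 0. For the summed progenitor genes the medians were 26.9 in both-program, 50.2 in progenitor-only and 0.278 in Prlr-only barcodes of Ctrl, and 34.02, 66.8 and 0 in cKO. The typical member thus stood well above both gates and below the class with that program alone. Prlr rested on a median of 38 UMIs in Ctrl and 22 in cKO, so most members did not pass on 1 or 2 transcripts, although the lowest had 1. The progenitor gate was passed by Wfdc18 alone in 71.7% of members in Ctrl and 79.2% in cKO. Aldh1a3, which encodes a retinaldehyde dehydrogenase, sufficed in 23.4% and 31.4%, and Csn3, which encodes kappa-casein, in 11.8% and 8.63%. All 3 genes were found together in 77.7% of members in Ctrl and 60.5% in cKO. Just inside the gates the lowest members had 3.01 Prlr UMIs per 10000 in either library, while the highest progenitor-only barcodes had 2.99.

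**Figure D1:**
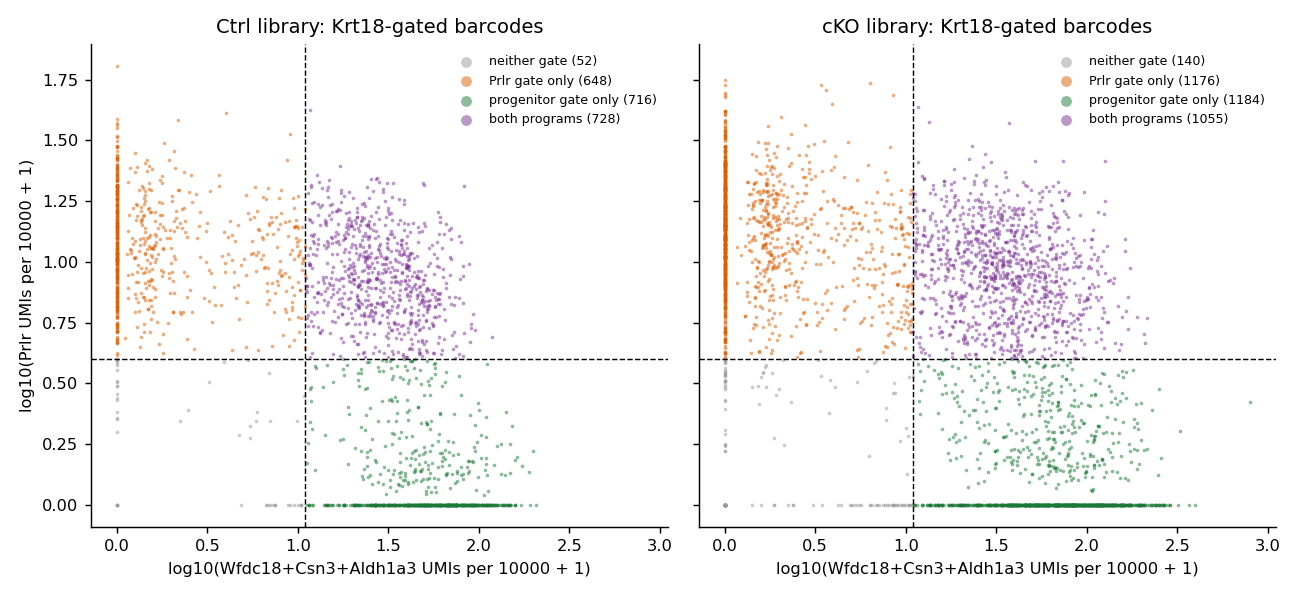
Each point is a Krt18-gated barcode of the Ctrl (left) or cKO (right) library. The x axis is the log10 of summed Wfdc18, Csn3 and Aldh1a3 UMIs per 10000 plus 1, the y axis the same for Prlr, and dashed lines mark the gates of 10 and 3 per 10000. The 728 and 1055 both-program barcodes (purple) fill the upper right region as a broad group.

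Krt18-gated barcodes with both programs made up 33.96% of 2144 gated barcodes in Ctrl (31.95 to 36.004, Clopper-Pearson) and 29.7% of 3555 in cKO (28.2 to 31.2). These shares depend on the gate: at a progenitor gate of 50 per 10000 they were 4.62% and 8.55%, with the order of the libraries turned. Of the barcodes that passed the Prlr gate, 52.9% in Ctrl and 47.3% in cKO also passed the progenitor gate. Of those that passed the progenitor gate, 50.4% and 47.1% also passed the Prlr gate.

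The median both-program barcode held about as many transcripts as the medians of the other 2 classes summed. In Ctrl their UMI totals ran from 1992 to 175511 with a median of 48364.5, against 23492 in Prlr-only and 21733 in progenitor-only barcodes. The summed medians of the single-program classes were 45225, and the both-program median (46492 to 50203) was 1.07 times that sum. In cKO the median was 27536 (25956 to 28908), with a range from 940 to 138020, against 13035.5 and 13424, or 1.04 times their sum. The ratio did not hold at 1 or above under every alternative, and fell to 0.956 and 0.904 when the deepest 10% of gated barcodes were left out. Median detected genes were 6175 in both-program barcodes of Ctrl against 4345 and 4103, and 4640 in cKO against 3104 and 3033.5. After thinning every barcode to 5000 UMIs, these gaps shrank to 1866 genes against 1803 and 1779.5 in Ctrl and 1786.5 against 1752 and 1717.5 in cKO. The mitochondrial share was similar across classes, with medians of 2.34%, 2.56% and 2.06% in Ctrl and 2.08%, 2.37% and 1.84% in cKO.

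The share of both-program barcodes climbed with depth. In Ctrl it was 7.65% in the shallowest quartile of gated barcodes, then 14.2% and 46.3%, and 67.7% in the deepest quartile. In cKO the 4 values were 6.97%, 10.5%, 39.4% and 61.9%. When every barcode was first thinned to 5000 UMIs and then gated, 30.6% of 2082 gated barcodes in Ctrl passed both gates. In cKO it was 29.7% of 3507. Of the barcodes gated at full depth, 63 and 249 were too shallow to thin and were left out. The cilia limit was applied to the thinned counts, so barcodes set aside at full depth could enter. Of the 637 and 1041 barcodes that passed both gates when thinned, 586 and 870 were original members. Of the original members, 81.3% in Ctrl and 84.0% in cKO passed both gates again at that depth. The barcodes that passed both gates when thinned still had the larger original totals, with a median of 47607 UMIs in Ctrl against 23929 and 24467 in the other classes.

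**Figure D2:**
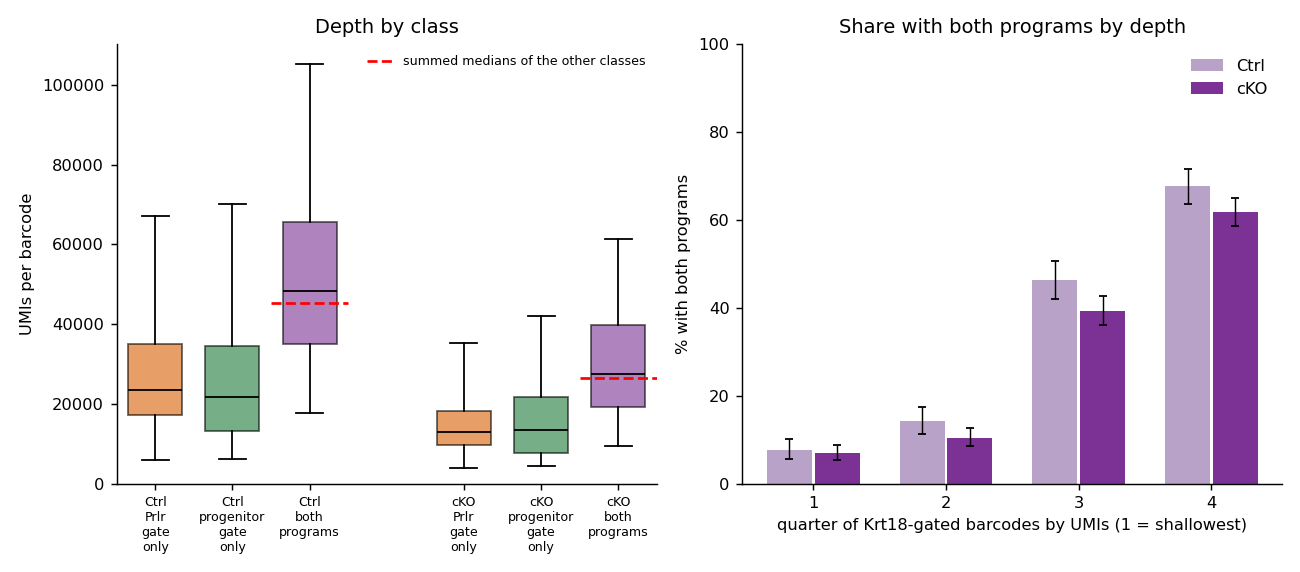
Left, UMIs per barcode by class and library, with the median (line), the quartiles (box) and the 5th and 95th percentiles (whiskers). The dashed red line is the sum of the Prlr-only and progenitor-only medians, 45225 in Ctrl and 26459.5 in cKO. Right, the percentage of Krt18-gated barcodes with both programs in each quartile of depth, with 95% Clopper-Pearson intervals, which rises from 7.65% to 67.7% in Ctrl and from 6.97% to 61.9% in cKO.

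Whether a both-program barcode held 1 cell or 2 was not tested. Scrublet, which scores barcodes by their likeness to simulated sums of 2 barcodes, called 3 of the 728 members in Ctrl (0.412%, 0.0851 to 1.1995) and 9 of the 1055 in cKO (0.853%, 0.391 to 1.61). It called 0.761% and 0.928% of all kept barcodes. Of Prlr-only and progenitor-only barcodes it called 2.01% and 0.698% in Ctrl, and 0.850% and 1.18% in cKO. Median scores were nevertheless higher in members, at 0.041 in Ctrl against 0.0203 and 0.0155 in Prlr-only and progenitor-only barcodes, and 0.0714 in cKO against 0.0302 and 0.0245.

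Few Krt18-gated barcodes also carried genes of another lineage. Basal-gated barcodes numbered 743 in Ctrl and 657 in cKO, and endothelial-gated barcodes 113 and 529. Each number was below the 2144 and 3555 Krt18-gated barcodes of its library. The 743 in Ctrl were still more than the 648 Prlr-only or 716 progenitor-only barcodes there. Cuts for basal genes (Krt5 with Krt14, and Acta2 with Myh11) and endothelial genes (Pecam1, Cdh5 and Emcn) were set at 0.2 of the median in basal-gated and endothelial-gated barcodes, a choice made after the data had been seen. Of all Krt18-gated barcodes, 0.420% in Ctrl and 0.647% in cKO also passed the basal cuts, and 0.0933% and 0.675% passed the endothelial cut. Among both-program barcodes of Ctrl, 0 of 728 passed either cut, which allows a share of up to 0.412% by a limit of 3 counts (0.505% by the Clopper-Pearson bound). In cKO 4 of 1055 passed the basal cuts and 5 the endothelial cut.

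As a background, barcodes of other lineages were held to the same levels. They were defined with Krt18 under 50 per 10000, so barcodes rich in Krt18 are not among them, and free RNA itself was not measured. The Prlr level of the gate was reached by 0 of 113 endothelial-gated barcodes in Ctrl, which allows up to 2.65%, and by 4 of 529 in cKO (0.756%). Among basal-gated barcodes it was reached by 2 of 743 and 5 of 657. The progenitor level was reached by 1 and 4 endothelial-gated barcodes and by 1 and 2 basal-gated ones. Endothelial-gated barcodes had median totals of 19430 and 21047 UMIs, near those of the single-program classes in Ctrl and above them in cKO. Basal-gated barcodes had 10653 and 7819.

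Genes outside the gates were then compared as UMIs summed over each class, scaled to a total of 1000000 per class (CPM). Hormone-sensing genes stood between the classes in both-program barcodes, below Prlr-only and above progenitor-only barcodes, in 14 of 14 measured members of the list in Ctrl and 13 of 13 in cKO. Tnfsf11 had too few UMIs in cKO to count. The median log2 ratio to Prlr-only barcodes was -0.60 in Ctrl and -0.63 in cKO, and to progenitor-only barcodes 2.39 and 2.40.

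Among the receptors and transcription factors, Esr1, the estrogen receptor (ENSMUSG00000019768, chromosome 10, 4611593 to 5005614, plus strand of GRCm38), stood at 25.5 CPM in both-program barcodes of Ctrl (23.9 to 27.1). It stood at 36.7 CPM in Prlr-only and 4.75 CPM in progenitor-only barcodes. In cKO the levels were 22.6, 34.9 and 4.00 CPM. Pgr, the progesterone receptor, stood at 52.2, 84.4 and 11.2 CPM in the same order in Ctrl and at 57.7, 87.5 and 12.5 CPM in cKO. Foxa1, a factor that opens chromatin for the estrogen receptor, stood at 43.4, 62.5 and 17.4 CPM in Ctrl and 25.9, 39.1 and 11.7 CPM in cKO. All 3 kept the same order of classes in both libraries.

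Signals and targets of hormone-sensing cells followed that order too. Areg, the ligand amphiregulin, stood at 1286 CPM in both-program barcodes of Ctrl, 2481 CPM in Prlr-only and 281 CPM in progenitor-only barcodes. In cKO it stood at 2718, 4919 and 619 CPM. Wnt4, the ligand of progesterone-driven branching, stood at 269, 370.5 and 52.3 CPM in Ctrl and at 98.8, 145 and 27.4 CPM in cKO. Greb1, a classic estrogen-induced gene, stood at 9.46, 15.7 and 2.76 CPM in Ctrl and at 27.9, 44.2 and 5.25 CPM in cKO.

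Luminal progenitor genes gave the opposite order. In each library 12 of 12 measured members of the list lay between the classes, below progenitor-only and above Prlr-only barcodes. The median log2 ratio to progenitor-only barcodes was -0.80 in Ctrl and -0.84 in cKO, and to Prlr-only barcodes 1.97 and 2.07. Elf5, the lineage factor of the milk side (ENSMUSG00000027186, chromosome 2, 103411688 to 103450989, plus strand), stood at 30.5 CPM in both-program barcodes of Ctrl (28.8 to 32.3), against 48.4 CPM in progenitor-only and 6.16 CPM in Prlr-only barcodes. In cKO the levels were 18.3, 27.1 and 6.03 CPM. Kit, a receptor tyrosine kinase of luminal progenitors, stood at 6.43, 11.1 and 1.54 CPM in Ctrl and 5.24, 10.2 and 1.76 CPM in cKO.

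The secreted proteins of this side were abundant in both-program barcodes. Lcn2, an iron-binding defence protein, stood at 4149 CPM in Ctrl, against 7024 CPM in progenitor-only and 912 CPM in Prlr-only barcodes. In cKO it stood at 3629.9 CPM against 6829 and 417 CPM. Trf, transferrin, stood at 1206 CPM against 2150.3 and 215 CPM in Ctrl, and at 328 CPM against 665 and 65.0 CPM in cKO. Ltf stood at 177, 359 and 22.9 CPM in Ctrl and 312, 548 and 18.9 CPM in cKO. In each case the both-program level was closer to the progenitor-only than to the Prlr-only level on the log scale, as the plot of list genes shows. A level midway on a linear scale also lies nearer the higher class on a log scale, so no lean to either side follows.

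**Figure D3:**
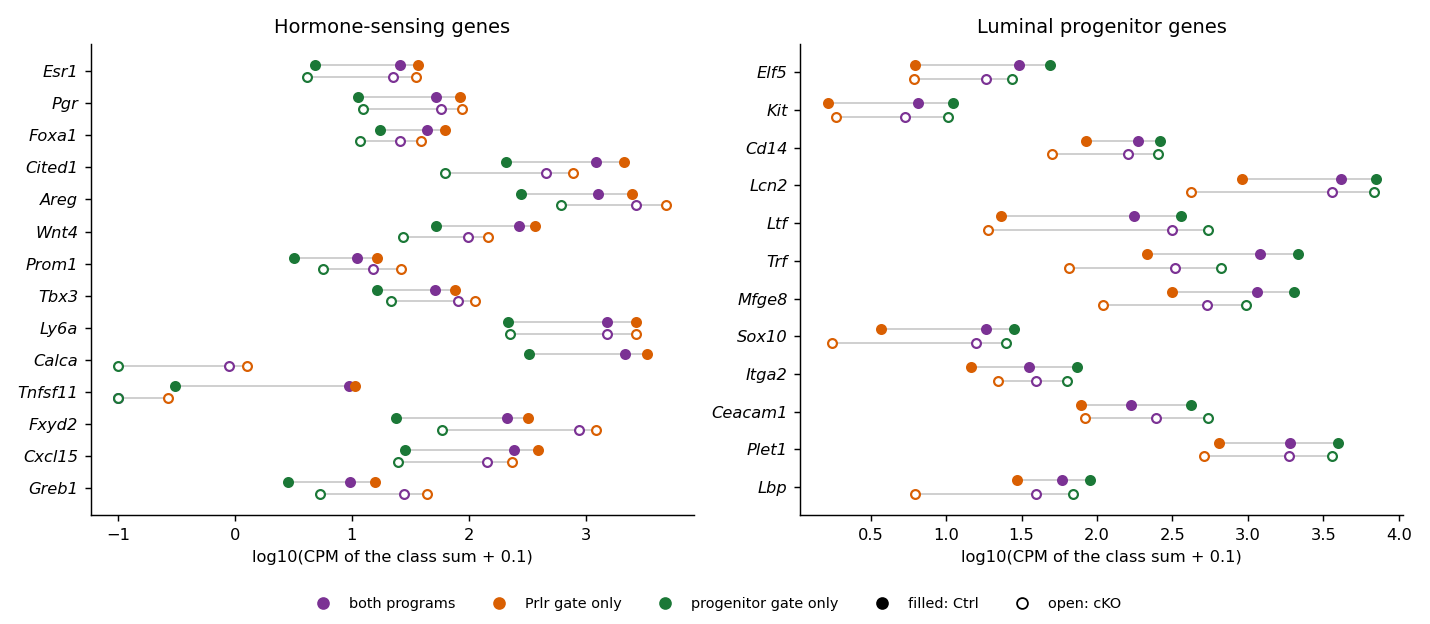
Class levels of 14 hormone-sensing (left) and 12 luminal progenitor genes (right), as log10 of CPM plus 0.1 over the summed UMIs of a class (filled, Ctrl; open, cKO). The purple both-program point lies between the other classes for all progenitor genes and for the measured hormone-sensing genes, while Tnfsf11 in cKO is at 0 UMIs in both-program and progenitor-only barcodes and its points overlap.

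The same held across the transcriptome. Of 2619 genes that differed at least 2-fold between Prlr-only and progenitor-only barcodes in Ctrl, 2592 (99%) had a both-program level between those classes. In cKO it was 2529 of 2546 (99.3%), so the lists above were at the background of all such genes. On a linear scale where 0 is the Prlr-only and 1 the progenitor-only CPM, the median position of these genes was 0.42 in Ctrl, with quartiles of 0.35 and 0.50. In cKO it was 0.44, with quartiles of 0.37 and 0.51. Between 0.25 and 0.75 lay 89.96% of the genes in Ctrl and 93.0% in cKO. Genes higher in Prlr-only barcodes had median positions of 0.42 and 0.43, and genes higher in progenitor-only barcodes 0.43 and 0.45, so neither program stood out in position.

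Almost no gene was raised in both-program barcodes over both other classes. At least 2-fold above both stood 17 of 13489 measured genes in Ctrl (0.126%) and 22 of 13464 in cKO (0.163%). At least 2-fold below both stood 89 (0.66%) and 135 (1%). Of 9006 genes with at least 100 UMIs in the both-program barcodes of each library, 0 exceeded the higher class by 1.5-fold in both libraries. The 10 genes with the largest excess shared by the libraries were Cpsf1, Ccl20, Dis3l2, Trps1, Cgnl1, Hmbox1, Fam131c, Mylip, Tbcd and Ipo4. Cpsf1, a subunit of the RNA cleavage and polyadenylation complex, led at 7.10 CPM in Ctrl against 5.61 CPM in cKO, 1.26 and 1.23 times the higher class. Ccl20, a chemokine, stood at 17.0 and 8.87 CPM, 1.49 and 1.21 times. Trps1, a GATA-type repressor abundant in luminal cells, stood at 128 and 73.7 CPM, 1.19 and 1.23 times.

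Counted per barcode rather than as CPM, the programs stood near the sum of the classes. Both-program barcodes of Ctrl held a mean of 380 UMIs of the hormone-sensing list, against 339 in Prlr-only and 32.7 in progenitor-only barcodes, which was 1.02 times the summed means. In cKO they held 189 against 161 and 18.2, or 1.05 times. For the luminal progenitor list the means were 482 against 65.4 and 450 in Ctrl, 0.94 times the sum, and 224 against 20.1 and 230.3 in cKO, 0.89 times. Esr1 stood at 1.35 UMIs per barcode in Ctrl against a sum of 1.16, and Elf5 at 1.62 against 1.495. In cKO Esr1 stood at 0.702 against 0.609 and Elf5 at 0.570 against 0.550. The gated gene Prlr itself stood at 1.3104 and 1.34 times the sum, which the gate helps to set.

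Single barcodes held mixtures rather than one program or the other. After thinning to 5000 UMIs, progenitor genes made up a median of 56.3% of the UMIs of both lists in both-program barcodes of Ctrl, with 5th and 95th percentiles of 22.7% and 87.2%. In cKO the median was 53.3%, from 17.3% to 89.4%. Between 20% and 80% lay 86.5% of both-program barcodes in Ctrl and 80.9% in cKO. The same range held 23.7% and 14.9% of Prlr-only and 7.10% and 8.52% of progenitor-only barcodes.

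**Figure D4:**
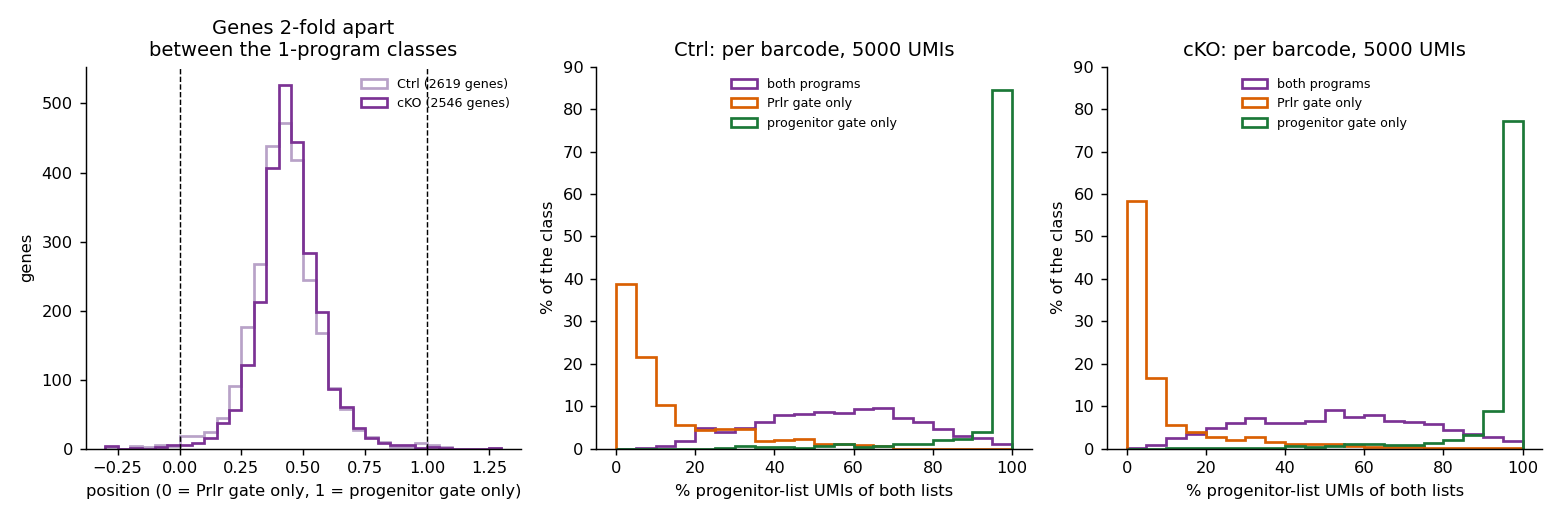
Left, number of genes by position of the both-program level, for genes that differ at least 2-fold between the classes with 1 program (0 and 1, dashed lines; values beyond the axis are in the end bins), with medians of 0.42 in Ctrl and 0.44 in cKO. Middle and right, per barcode at 5000 UMIs, the percentage of hormone-sensing plus progenitor list UMIs that belong to the progenitor list, as a percentage of each class. Both-program barcodes spread over the middle with medians of 56.3% and 53.3%, while the other classes sit at the ends.

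Neighbours were also counted with the gate genes left out. They were found on 20 principal components of 2000 variable genes at 5000 UMIs per barcode. Of the 15 nearest neighbours of a both-program barcode, 67.2% on average were both-program in Ctrl, where these made up 34.6% of the gated barcodes. A further 18.2% were Prlr-only and 13.1% progenitor-only. In cKO the shares were 65.8%, 18.8% and 13.4%. The other classes had larger own-class shares, 72.0% and 80.6% for Prlr-only and 87.6% and 85.25% for progenitor-only barcodes in Ctrl and cKO. Prlr-only and progenitor-only barcodes were seldom each other's neighbours, at 1.76% to 2.12% in the 2 libraries.

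A smaller number of members were shallow. In Ctrl 60 members (8.24%) and in cKO 92 (8.72%) had no more UMIs than the Prlr-only median. Their hormone-sensing list stood at 4928 CPM in Ctrl against 4018 CPM in cKO, against 7224 and 6112 CPM in the deeper members. Their progenitor list stood at 10622 and 11214 CPM, against 9066 and 7103 CPM. On the scale above, the shallow members lay at 0.66 and 0.59 for these lists in Ctrl and at 0.68 and 0.80 in cKO, nearer the progenitor-only class than the deeper members, which lay between 0.45 and 0.48. This split was chosen after the data had been seen.

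Regulators of both kinds were counted in the same barcodes. At 5000 UMIs per barcode, 7.77% of 721 members in Ctrl (5.92 to 9.97) had a UMI of Esr1, Pgr or Foxa1 together with one of Elf5 or Kit. In Prlr-only barcodes the share was 1.76% (0.883 to 3.13) and in progenitor-only barcodes 2.32% (1.33 to 3.74). In cKO it was 4.05% of 1036 members (2.94 to 5.44) against 1.95% (1.21 to 2.96) and 0.824% (0.378 to 1.56), and the intervals of members and Prlr-only barcodes overlapped. At 2000 UMIs the share of members in Ctrl was 0.825% (0.303 to 1.79), which overlapped those of Prlr-only (0.00395 to 0.866) and progenitor-only barcodes (0.087 to 1.23). In cKO it was 1.04% (0.523 to 1.86), against 0.257% (0.053 to 0.749) in Prlr-only barcodes, and these intervals overlapped. Progenitor-only barcodes of cKO gave 0 of 1173, with a Clopper-Pearson bound of 0.314% that lay below the members' interval. Taken singly at 5000 UMIs, a hormone-sensing regulator was found in 43.4% of members in Ctrl and 39.6% in cKO, and a progenitor regulator in 16.6% and 11.004%. Whether the regulators met in a barcode more often than these single shares give was not tested. Basal-gated barcodes gave 0 of 688 and 0 of 557, which allows up to 0.436% and 0.539%. Endothelial-gated ones gave 1 of 106 and 1 of 495, and these cells express Kit, at 64.3 and 73.8 CPM. Unthinned, 67.7% of members in Ctrl and 39.0% in cKO had both kinds, against 11.7% and 7.74% of Prlr-only and 24.02% and 10.1% of progenitor-only barcodes at their lower depth. Esr1 and Elf5 were found in the same barcode in 42.6% of members in Ctrl and 18.1% in cKO.

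Further lists described what else these barcodes held. Of all measured genes, 0.66% in Ctrl and 1% in cKO stood at least 2-fold below both classes. Shares of all genes below or between the classes by any amount were not counted, so the list counts have no matching share. All 10 mitotic genes, such as Top2a and Cdk1, were below both classes in each library. Their summed level was 15.9 CPM in Ctrl against 48.0 CPM in Prlr-only and 42.4 CPM in progenitor-only barcodes, and 21.7 CPM in cKO against 85.1 and 84.8 CPM. In each class 10 barcodes held 59.1% to 88.2% of these UMIs. At 5000 UMIs, barcodes with 3 or more mitotic UMIs were 0.555% of members in Ctrl against 0.962% and 0.435%, and 0.579% in cKO against 1.67% and 1.10%. The intervals of members and the other classes overlapped in both libraries.

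Basal genes were also low, again without a matching share of all genes. Of 10 measured, 9 were below both classes in each library, with a summed level of 87.9 CPM in both-program barcodes of Ctrl against 258 and 379.7 CPM, and 198 CPM in cKO against 228 and 509 CPM. Basal-gated barcodes stood at 25185 and 28303 CPM. Endothelial markers summed to 17.6 and 30.3 CPM against 2564 and 2615 CPM in endothelial-gated barcodes. Shared luminal genes stood near the other classes: 11 of 13 in Ctrl and 13 of 13 in cKO lay between them, also without such a share. Epcam, the epithelial adhesion molecule, stood at 8011 CPM in Ctrl against 5798 CPM in Prlr-only and 11476 CPM in progenitor-only barcodes.

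The milk and prolactin pathways were present at intermediate levels. Of 10 measured milk and secretory genes in Ctrl, 9 lay between the classes, and 7 of 8 in cKO. Spp1, osteopontin, stood at 80.6 CPM in both-program barcodes of Ctrl, 244 CPM in progenitor-only and 8.13 CPM in Prlr-only barcodes. Of 7 prolactin signalling genes, 7 and 6 lay between. The 99% and 99.3% above cover only genes 2-fold apart, so the counts for these 2 lists had no matching share. Stat5a, the transcription factor that prolactin activates, stood at 89.6 CPM against 22.0 and 123 CPM in Ctrl, thus closer to the Prlr-only class.

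Between the libraries, both-program barcodes differed in some genes by large factors, with no replicate check. Of 13474 genes with at least 20 UMIs, 795 (5.9%) stood 2-fold or more higher in cKO and 903 (6.7%) 2-fold or more lower. Scaled by trimmed means the numbers were 909 and 767, so which direction held more genes depends on the scaling. In Prlr-only barcodes the shares were 6.28% and 8.49%, and in progenitor-only barcodes 3.66% and 3.68%. The median log2 ratio of all genes was -0.14 in both-program barcodes and -0.11 in each of the others, and ratios are given without correcting for it.

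The hormone-sensing list held the widest differences. Of its 14 members, 3 passed 2-fold upward in cKO and 4 passed it downward, against the 5.9% and 6.7% of all genes. Calca, which encodes calcitonin and a neuropeptide, was found in 98.2% of both-program barcodes in Ctrl and 0.474% in cKO, at 2186 CPM (2171 to 2201) and 0.792 CPM (0.518 to 1.16). In Prlr-only barcodes it stood at 3339 and 1.15 CPM. Tnfsf11 stood at 9.30 CPM in Ctrl and had 0 UMIs in cKO, 102-fold lower with 0 set to a floor of 3 counts. The upper end of the counting interval of its log2 ratio was -6.36. Cited1, a co-regulator of estrogen receptor action, had a log2 ratio of -1.43 and Wnt4 of -1.45. Fxyd2, a sodium pump subunit, was 4.10-fold higher, at 214 and 878 CPM, Greb1 had a log2 ratio of 1.56 and Areg of 1.08. Esr1 and Pgr had log2 ratios of -0.18 (-0.31 to -0.04) and 0.14 (0.05 to 0.24), both under 2-fold.

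In the luminal progenitor list, 0 of 12 genes were 2-fold higher and 2 were 2-fold lower, beside 5.9% and 6.7% of all genes. The 2 were Trf with a log2 ratio of -1.88 and Mfge8, which encodes a milk fat globule protein, with -1.11. Elf5 had a log2 ratio of -0.74 (-0.88 to -0.59) in both-program and -0.84 in progenitor-only barcodes, and -0.03 in Prlr-only barcodes. Of 9 milk genes, 0 were 2-fold higher and 3 lower, the caseins Csn1s1 and Csn2 and the lactalbumin gene Lalba. They were low in both libraries. Csn1s1 stood at 1.97 CPM in Ctrl against 0.305 CPM in cKO and Lalba at 4.72 against 1.07 CPM, while Csn2 had 32 UMIs in Ctrl and 0 in cKO. In the prolactin pathway, Stat5a stood at 89.6 and 45.8 CPM and Socs2, a feedback inhibitor, at 108 and 63.9 CPM, both under 2-fold, and 0 of the 7 genes passed 2-fold in either direction.

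Of 11 interferon-stimulated genes, 7 passed 2-fold upward in cKO in both-program barcodes and 0 downward, beside 5.9% and 6.7% of all genes. Their median log2 ratio was 1.14. The same count was 7 of 11 in Prlr-only and 6 of 11 in progenitor-only barcodes, beside 6.28% and 3.66% of all genes. The medians were 1.19 and 1.02 in those classes. Ifit1, an antiviral RNA-binding protein, stood at 2.38 CPM in Ctrl against 13.6 CPM in cKO, and Isg15, a ubiquitin-like modifier, at 16.0 and 49.7 CPM. Of 12 lipid synthesis genes, 3 were higher in both-program and 5 in Prlr-only barcodes, and 0 in progenitor-only barcodes. All genes gave 5.9%, 6.28% and 3.66% in the same order. Idi1, an enzyme of the cholesterol pathway, stood at 25.3 and 72.5 CPM in both-program barcodes, a log2 ratio of 1.52, against 1.75 and 0.06 in the other classes.

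Other lists moved little or in part. Of 9 D cyclins and partners, 8 junction genes and 13 shared luminal genes, 0 passed 2-fold in either direction in both-program barcodes, with median log2 ratios of 0.21, 0.07 and 0.00183. Of 13 acute-phase and cytokine genes, 2 passed it upward and 3 downward, beside 5.9% and 6.7% of all genes. Cxcl1, a neutrophil-attracting chemokine, stood at 763 CPM in Ctrl against 1928 CPM in cKO, a log2 ratio of 1.34, with 0.44 in Prlr-only and 1.37 in progenitor-only barcodes. Il33, an alarm cytokine, stood at 2.15 and 22.5 CPM. Of 10 antigen presentation genes, 1 passed upward and 1 downward, beside the same 5.9% and 6.7% of all genes.

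Ccnd1, which encodes cyclin D1 and which the series title names as a target of the deleted microRNAs (ENSMUSG00000070348, chromosome 7, 144929931 to 144939925, minus strand), stood at 86.7 CPM in both-program barcodes of Ctrl and 140.2 CPM in cKO. The log2 ratio was 0.69 (0.63 to 0.76). It lay between 0.20 in Prlr-only barcodes, at 90.2 and 103 CPM, and 0.83 in progenitor-only barcodes, at 85.3 and 152 CPM. Of 9 measured genes from a list of published miR-200 family targets that includes Ccnd1, 1 was at least 2-fold higher in both-program barcodes, beside 5.9% of all genes, and the list's median log2 ratio was -0.18 beside -0.14 for all genes. That gene was Flt1, at 0.933 and 2.13 CPM. Flt1 is an endothelial receptor, and 5 of 7 measured endothelial markers were also at least 2-fold higher in cKO, with Cdh5 at 0.130 and 2.26 CPM. Of 10 basal and 8 myeloid markers, 5 each were 2-fold higher too. No measured marker of these 3 lists was at 0 in members of either library. In Ctrl 5 of 8 endothelial, 4 of 8 myeloid and 10 of 11 basal markers were measured, and the others were not checked. The summed endothelial level was 17.6 CPM in Ctrl against 30.3 CPM in cKO. The part of RNA from other cells in these ratios was not tested.

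The rule for named genes gave 10 genes with the highest and 10 with the lowest ratios in both-program barcodes. The highest were Trim12a, Rpgrip1, Trim30d, Trdv4, Lhfpl4, Ido1, Fabp4, Nppc, Sprr1a and Ctla2a. Ido1, an interferon-induced tryptophan-degrading enzyme, stood at 10.5 and 320.4 CPM, and Sprr1a, a cornified envelope precursor, at 33.5 and 705 CPM. Rpgrip1 stood at 0.363 and 18.4 CPM, and it was also at 0 CPM in Ctrl against 21.2 and 35.8 CPM in cKO in endothelial-gated and basal-gated barcodes. Trim12a had 0 UMIs in Ctrl in each of the 3 luminal classes and stood at 3.96 CPM in both-program barcodes of cKO. Fabp4 and Ctla2a stood at 24.6 and 15.5 CPM in cKO against 0.959 and 0.777 CPM in Ctrl. In endothelial-gated barcodes of cKO they stood at 2543 and 3309 CPM.

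The lowest were Calca, Pianp, Fam90a1a, Xlr4a, Insc, Saa1, Tnfsf11, Got1l1, Aldh3a1 and Tnfsf13os. Aldh3a1, an aldehyde dehydrogenase, stood at 246 CPM in Ctrl against 2.87 CPM in cKO, and at 407 and 4.77 CPM in Prlr-only barcodes. Saa1, an acute-phase protein, stood at 73.7 and 0.701 CPM and was found in 19.6% and 1.04% of both-program barcodes. Pianp differed in basal-gated barcodes as well, at 18.6 and 1.06 CPM. Xlr4a stood at 11.6 CPM in Ctrl with 0 UMIs in cKO, and at 14.6 and 5.26 CPM in the other luminal classes of Ctrl, again with 0 UMIs in cKO.

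**Figure D5:**
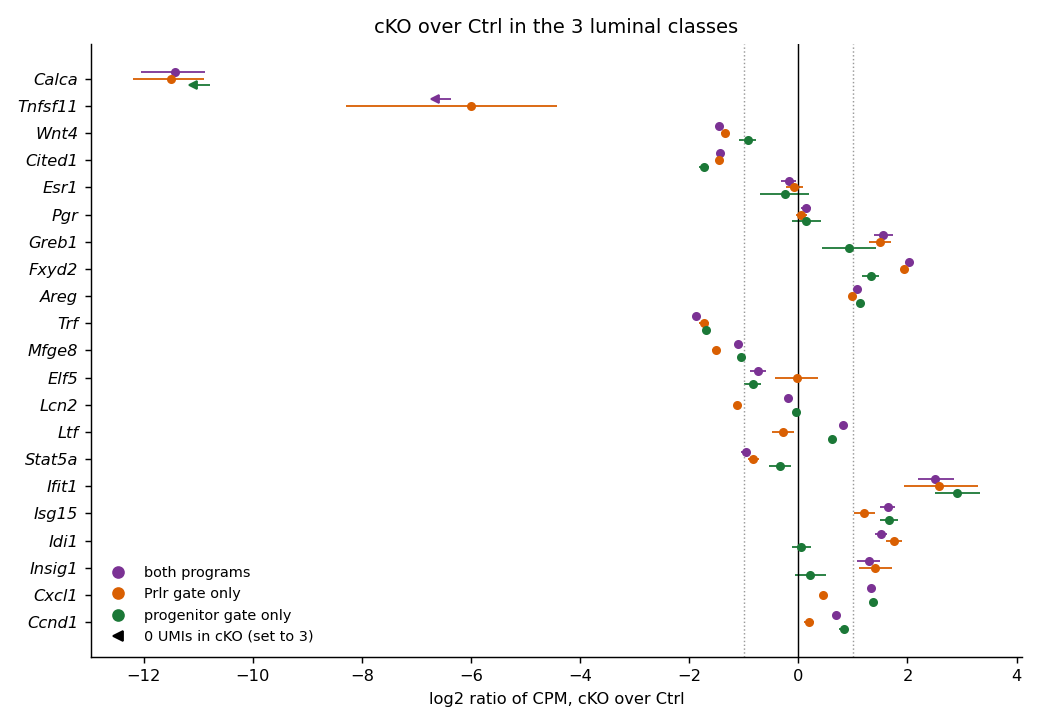
log2 ratio of CPM, cKO over Ctrl, for 21 genes in both-program (purple), Prlr-only (orange) and progenitor-only (green) barcodes, with 95% counting intervals where they exceed the point, and dotted lines at 2-fold. Left-pointing triangles have 0 UMIs in cKO, set to 3. Calca and Tnfsf11 lie farthest left, Ifit1 and Fxyd2 farthest right, and Ccnd1 is at 0.69 in both-program barcodes.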

How the data were processed

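The deposited matrices hold raw counts of unique molecular identifiers per gene and barcode. Per the submitters' processing notes they were made with Cell Ranger 2 on mm10, and per the file headers with software version 3.0.0. The deposited barcodes numbered 4237 in Ctrl and 6257 in cKO. Here, barcodes with fewer than 500 genes or over 10% mitochondrial counts were left out, and the gates were applied to counts per 10000. Scrublet, run through scanpy 1.11.5 with an expected rate that grew with the number of cells, marked doublets, which were kept. It called 26 and 51 barcodes. Counts were summed per class and scaled to CPM, with exact Poisson intervals, exact conditional binomial intervals for ratios and Clopper-Pearson intervals for shares, all at 95%. Genes needed 20 UMIs to be compared, and a floor of 3 counts replaced 0 in folds. Barcodes were thinned to 5000 UMIs without replacement where detection was compared. With 1 library per group no test was made. Named genes were the 10 highest and 10 lowest cKO to Ctrl ratios where the library with more held 100 UMIs or more of the gene, in 5% or more of its members, the 10 with the largest shared excess over both other classes, and up to 5 members of each list, without clone-named, pseudogene, mitochondrial or ribosomal genes. Members, gates and lists were chosen with earlier results of these data known. The lineage cuts, the neighbour measure and the split by depth of members were added after the data had been seen. Of 31053 gene identifiers, 30934 were found in GENCODE M21 on GRCm38. The scripts, in Python 3.11.15 with numpy 2.4.6, scipy 1.17.1, pandas 2.3.3 and scikit-learn 1.9.0, were tested on simulated data. Alternatives changed each gate, the filters, the depth and the scaling.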

Additional observations from a re-analysis of the deposited data

Results flagged for a closer look

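Barcodes set aside for cilia genes lie outside every comparison above. In cKO, 294 of 3849 barcodes that passed the Krt18 gate were set aside, or 7.64% (6.82 to 8.52), against 2 of 2146 in Ctrl, or 0.0932% (0.0113 to 0.336). They drew notice because the control library had almost none. Of the 294 in cKO, 139 would have passed both program gates, or 47.3% (41.5 to 53.2), with a median of 38738 UMIs, and 140 passed the Prlr gate only, with a median of 15545.5. In Ctrl, 0 of the 2 passed both gates.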

How the results depend on the processing

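No paired analysis was possible because each group is 1 library and no test was made. Of 196 values of the main results under alternatives, 159 stayed close to the main value and 37 moved. The order of the libraries, the side of 1 of the depth ratio and the balance of higher and lower genes turned under settings below. The median log2 ratio, cKO over Ctrl, of all genes in both-program barcodes was -0.138, and -0.048 when scaled by trimmed means. The hormone-sensing list had a median of -0.087 in these barcodes, smaller in size than that shift, so its sign depends on the scaling. The share of gated barcodes with both programs, in Ctrl and cKO, was 36.7% and 31.96% at a Prlr gate of 2 and 27.5% and 23.5% at 5. It was 24.02% and 23.2% at a progenitor gate of 20, and 4.62% and 8.55% at 50, where the order of the libraries turned. It was 23.7% and 20.9% with the gate on Csn3 and Aldh1a3 at 5, 21.7% and 20.97% with a luminal gate of 3 UMIs, 29.5% and 25.2% without the deepest 10%, and 30.6% in Ctrl when gated after thinning. The ratio of the both-program median depth to the summed medians was 0.999 and 0.981 at a Prlr gate of 5, 0.993 in Ctrl at a progenitor gate of 20, and 0.821 and 0.91 at 50. It was 0.989 in Ctrl with Csn3 and Aldh1a3, 1.02 in Ctrl at 5% mitochondrial counts, 0.984 and 0.957 when gated after thinning, and 0.956 and 0.904 without the deepest 10%. The median log2 ratio of hormone-sensing genes to Prlr-only barcodes was -0.52 in Ctrl at a progenitor gate of 20, -0.51 in cKO at 50 and -0.53 in cKO with Csn3 and Aldh1a3. That of progenitor genes to progenitor-only barcodes was -0.53 and -0.54 at a gate of 50. Regulators of both kinds were found in 15.6% of members in Ctrl at a gate of 50, and in 0.825% and 1.04% when thinned to 2000 UMIs. Genes 2-fold lower in cKO numbered 548 at a gate of 50. With at least 100 UMIs per gene, 392 were higher and 507 lower, since fewer genes were compared. The split of higher and lower genes was 909 and 767 when scaled by trimmed means, and 658 and 889 without the deepest 10%, against 795 and 903. The cause of the other changes was not tested. Of 48 named genes, 33 passed 2-fold, and 462 of their 462 values under 14 alternatives kept the direction. The alternatives reused the same 2 libraries, and the 10 highest and 10 lowest genes were chosen by these ratios. The kept directions were thus no independent check. Depth limits the regulators, with means of 0.57 to 1.62 UMIs of Esr1 or Elf5 per member.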
